A study of Mus musculus with 4 samples.

Results

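The genes described here are those of the unfolded protein response and the integrated stress response, 33 in all, read from microarrays of fetal mouse liver. A gene entered through the probe sets that the platform annotation gives to its symbol alone, and was represented by the brightest of them by mean signal over the 4 arrays. All 33 genes were found this way, among 11676 tested genes. The arrays carried total RNA from the liver of C57BL/6 fetuses on gestation day 17, 2 biological replicates of wildtype and 2 of Sox17+/- fetuses. All were fetuses of C57BL6 females mated to Sox17+/- males. The liver had been dissected from the tissue collected with the biliary system. The product of Sox17, an HMG-box transcription factor, is known for its part in endoderm, bile duct and blood vessel development. The sources used here do not give how the Sox17 allele was made, or how many fetuses made up a replicate. The comparison asks whether the stress responses of the endoplasmic reticulum (ER) and of translation differ in liver lacking 1 copy of Sox17.

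Secretory cells such as hepatocytes fold large amounts of protein in the ER, and the unfolded protein response adjusts that capacity. Its sensors are IRE1 (the product of Ern1), which splices Xbp1 mRNA, ATF6, which is cleaved to a transcription factor, and PERK (the product of Eif2ak3), a kinase of the initiation factor eIF2. XBP1 and ATF6 induce chaperones and the genes of ER-associated degradation. The integrated stress response joins PERK with the other eIF2 kinases, which sense haem, double-stranded RNA or amino acid shortage. It lowers general translation, raises translation of ATF4, and through ATF4 induces Ddit3, Trib3 and genes of amino acid synthesis and transport. Arrays of this kind measure mRNA, so kinase activity, Xbp1 splicing and ATF4 translation were not measured here.

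Promoters of several members hold letters that match known response elements, shown first for genes described below. RefSeq promoter sequences (build GRCm38.p6, from 250 bases before to 50 after the start of the gene) were matched by symbol for 30 of the 33 members, all but Atf6, Hyou1 and Manf. Both strands were searched for the ER stress response element (ERSE), CCAAT and CCACG separated by 9 bases, which ATF6 is known to bind together with NF-Y. It was present in 8 of the 30 promoters (26.7%) against 0.137% of the 27025 genes with a promoter in the table. The members were listed as genes of these responses, so the shares of known elements here and below are a description and no test. The 8 were Hspa5, Hsp90b1, Calr, Canx, Pdia6, Dnajc3, Creld2 and Syvn1, and Hsp90b1 had 2 copies. The lines below give each element in capitals with the bases around it, 5′ to 3′ on the strand of the gene and upstream of its start, for 4 chaperones and lectins of the ER and for Syvn1.
Hspa5, chr2:34772005-34772063, plus strand: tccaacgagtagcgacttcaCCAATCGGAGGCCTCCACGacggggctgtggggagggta
Hsp90b1, chr10:86705513-86705676, minus strand: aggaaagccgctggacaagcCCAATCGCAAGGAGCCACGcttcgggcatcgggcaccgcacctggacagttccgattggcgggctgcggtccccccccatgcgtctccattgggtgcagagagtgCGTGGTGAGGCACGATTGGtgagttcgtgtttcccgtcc
Calr, chr8:84847055-84847113, minus strand: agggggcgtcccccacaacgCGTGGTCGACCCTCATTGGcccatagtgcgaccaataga
Canx, chr11:50325780-50325838, minus strand: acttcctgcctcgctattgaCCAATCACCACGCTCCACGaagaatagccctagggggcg
Syvn1, chr19:6046512-6046570, plus strand: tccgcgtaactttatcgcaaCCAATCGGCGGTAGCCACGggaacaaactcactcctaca

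The shorter element ERSE-II, ATTGG and CCACG separated by 1 base, was present in 2 of the 30 promoters, Herpud1 and Dnajb11, against 0.0444% of all genes. The element TGACGTGG, known for XBP1, was present in 0 of the 30 and in 0.714% of all genes. The core TGATGNAA, found in elements that ATF4 binds with C/EBP proteins, was present in 4 of the 30 promoters (13.3%), those of Chac1, Asns, Trib3 and Herpud1, against 4.51% of all genes. It lies after the start of the gene in Trib3. No match overlapped a match to another element. The sequences below show the elements of Herpud1, which holds both kinds, and of Chac1 and Asns, which stand for the ATF4 branch, with the matches in capitals on either strand.
Herpud1, chr8:94386297-94386407, plus strand: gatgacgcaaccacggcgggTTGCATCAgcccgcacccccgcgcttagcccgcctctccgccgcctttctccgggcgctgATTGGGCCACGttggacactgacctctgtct
Chac1, chr2:119351029-119351076, plus strand: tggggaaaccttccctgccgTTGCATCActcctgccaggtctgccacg
Asns, chr6:7693210-7693252, minus strand: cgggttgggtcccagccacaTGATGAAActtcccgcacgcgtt

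All arrays had a trimmed mean signal of 500, with medians of 84.7 to 103. Sox17 had signals of 244 and 264 on the wildtype arrays against 139 and 124 on the Sox17+/- arrays. Actin set wildtype array 1 apart, where the 3′ probe set of Actb read 11909.5 and those of the 3 others 24712 to 35014. Its 3′ signal was 1.95 times the 5′ signal of Actb, against 1.20 to 1.43 times elsewhere, and for Gapdh the 4 arrays lay between 0.807 and 0.853. Hepatocyte markers were bright, with Alb between 22768 and 42354. Of 5 acinar markers measured, checked because the pancreas is rich in these chaperones, Cela1 read 994 to 1405, and Cpa1 and Ctrb1 between 9.41 and 53.8. No marker was listed at 0 on any array. In a bulk sample, fewer cells of a type and less RNA per cell cannot be told apart.

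No member passed the test between genotypes. Of the 33 members 0 passed limma's test at an adjusted p under 0.05, as did 0 of 22519 probe sets (0% higher and 0% lower), and every member had an adjusted p of 0.9999. At an unadjusted p under 0.05 the count was 0 of 33 members, against 4.07% of all probe sets. The median log2 difference over the members, Sox17+/- minus wildtype on the log2(signal + 16) scale, was 0.10, against -0.02 over all tested genes. Single members lay between -0.86 (Chac1) and 1.12 (Sesn2). Sox17 itself, with a difference of -0.87, did not pass either (unadjusted p by limma 0.0073, adjusted p 0.9999). The constant of 16 makes this scale understate differences of dim genes. For a single gene, the smallest two-sided p an exact permutation of these 4 arrays allows is 0.333.

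Signals of 4 members, Atf6, Eif2ak3, Dnajb11 and Sdf2l1, were higher on both Sox17+/- arrays than on both wildtype arrays, and those of 1, Calr, were lower. These are 12.1% and 3.03% of the members, against 14.5% and 18.7% of all tested genes. On this setting the share that was higher is near the background. With each array centred on its median the counts were 8 higher (24.2%) and 0 lower, against 16.1% and 11.1% of all tested genes. Leaving out 1 array, so that only 3 had to separate, gave 9 to 17 higher and 3 to 6 lower. Without Sox17+/- array 1 they were 9 (27.3%) and 3, against 30.1% and 34.7% of all tested genes, and without Sox17+/- array 2 they were 17 (51.5%) and 5, against 29.1% and 36.9%. Without wildtype array 1 they were 13 (39.4%) and 6, against 30.2% and 36.2%, and without wildtype array 2 they were 17 (51.5%) and 6, against 31.4% and 37.7%.

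**Figure D1:**
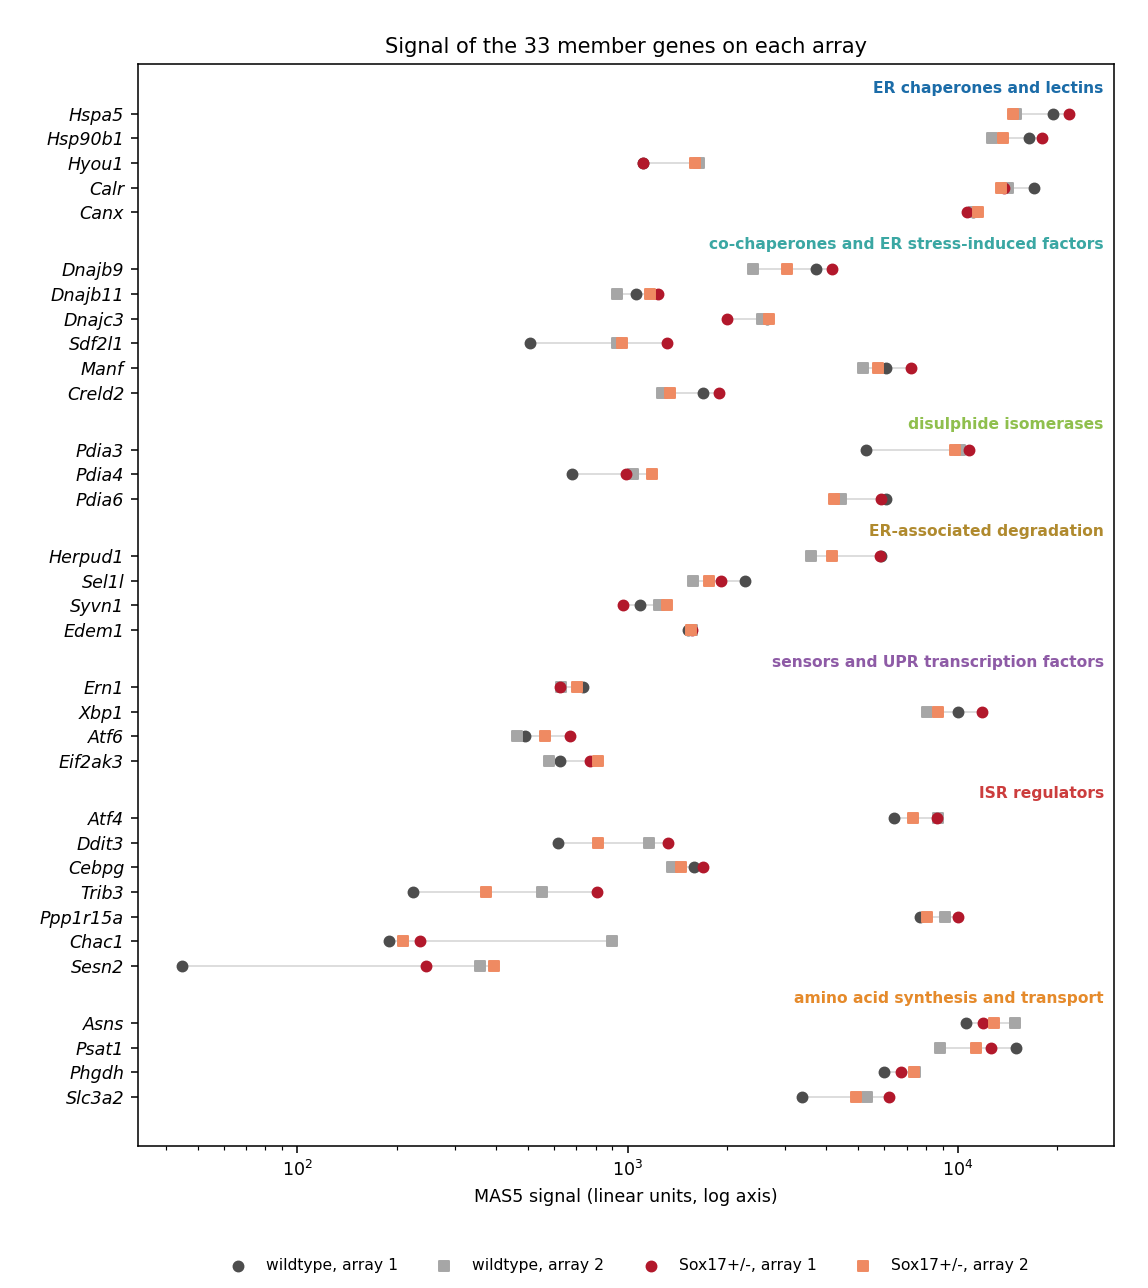
Signal of each member on the 4 arrays, on a log axis, with genes in rows by role, wildtype in grey and black, Sox17+/- in red and orange, circles for arrays numbered 1 and squares for arrays numbered 2. The grey line spans the 4 values of a gene. For Sesn2 it runs from 44.8 to 394 and for Edem1 from 1527 to 1571.

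At their brightest probe sets the ER chaperones and lectins had small differences between genotypes, and 4 of the 5 overlapped. Hspa5, the BiP chaperone that also holds the sensors inactive, had signals of 19472 and 14988 on wildtype arrays 1 and 2 and 21769 and 14684 on Sox17+/- arrays 1 and 2. The genotypes overlapped at this probe set, with the array numbers further apart than the genotypes, and its other probe sets are given below. Hsp90b1, the ER paralogue of HSP90, had 16501 and 12738.5 in wildtype and 18012 and 13693 in Sox17+/- liver. Canx, the membrane-bound lectin that retains glycoproteins for folding, had 11164 and 11206 against 10671 and 11498. Calr, its soluble counterpart, had 17080 and 14184 in wildtype against 13803 and 13566 in Sox17+/- liver. Both Sox17+/- values of Calr were below both wildtype values, by a log2 difference of -0.19 (SE 0.21). Hyou1, a large HSP70 relative that exchanges nucleotide on BiP, had means of 1379 ± 375 and 1359 ± 344 (SD, n = 2 each). Log2 differences of the 5 genes lay between -0.19 and 0.12.

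Within both array numbers, 12 of the 33 members (36.4%) were higher in Sox17+/- liver and 2 were lower, against 25.5% and 32.3% of all tested genes. Of the co-chaperones and ER stress-induced factors, 5 of 6 were among the 12. Dnajb11, a BiP co-chaperone, had signals of 1060 and 929 in wildtype and 1236 and 1170 in Sox17+/- liver, with no overlap (log2 difference 0.27, SE 0.20). Sdf2l1, which works with Dnajb11 on BiP clients, had 505 and 929 in wildtype and 1317 and 963 in Sox17+/- liver. The genotypes of Sdf2l1 were separated only by the narrow gap between 929 and 963, and wildtype array 1 was low. Its log2 difference was 0.70 (SE 0.36) and the unadjusted p by limma was 0.108. Dnajb9, which represses IRE1, had means of 3064 ± 944 and 3600 ± 801, and Manf, a BiP-binding secreted factor, had 5612 ± 632 and 6488 ± 1050 (SD, n = 2 each). Creld2, an ER stress-induced disulphide isomerase, had 1483 ± 303 and 1621 ± 388. Dnajc3, a co-chaperone also described as an inhibitor of PERK, was the exception, with 2640 and 2553 in wildtype and 1995 and 2690 in Sox17+/- liver.

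The disulphide isomerases Pdia3 and Pdia4 were dimmest on wildtype array 1. Pdia3, the isomerase that acts on glycoproteins with Canx and Calr, had 5287 and 10164 on the wildtype arrays and 10792 and 9805 on the Sox17+/- arrays. Its 3 brighter values were close together, and its difference between genotypes was 1.03 at array number 1 and -0.05 at number 2. Without wildtype array 1 the difference of Pdia3 was 0.02, against 0.49 with it. Pdia4 had 679 and 1037 in wildtype and 992 and 1183 in Sox17+/- liver. Pdia6, which dampens IRE1 and PERK signalling, had means of 5250 ± 1174 and 5037 ± 1157 (SD, n = 2 each).

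The genes of ER-associated degradation gave the smallest range, with log2 differences between -0.05 and 0.10 and overlap of the genotypes for all 4. Edem1, which directs misfolded glycoproteins to degradation, had 1527 and 1568 in wildtype and 1571 and 1561 in Sox17+/- liver. Syvn1, the ubiquitin ligase HRD1, had 1095 and 1245 against 971 and 1315, and its partner Sel1l had 2272 and 1584 against 1915 and 1760. Herpud1, which organises the ligase complex, had 5862 and 3584 against 5798 and 4158. Each pair of Herpud1 values at an array number was closer than the arrays within a genotype.

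Of the sensors and their transcription factors, Atf6 and Eif2ak3 did not overlap between genotypes, while Xbp1 and Ern1 did. Eif2ak3 had signals of 625 and 580 in wildtype and 772 and 815 in Sox17+/- liver. The means were 603 ± 31.6 and 793 ± 30.5 (SD, n = 2 each), with a log2 difference of 0.39 (SE 0.20) and an unadjusted p of 0.106 by limma. Atf6 had 489 and 461 in wildtype and 669 and 562 in Sox17+/- liver, with a log2 difference of 0.36 (SE 0.21) and an unadjusted p of 0.148 by limma. With any 1 array left out the differences were 0.34 to 0.44 for Eif2ak3 and 0.24 to 0.48 for Atf6. Genes without overlap cannot change direction in this way, so the kept direction is no further evidence. Xbp1, whose spliced and unspliced mRNAs the annotation does not tell apart, had 10029 and 8056 in wildtype and 11822.5 and 8743 in Sox17+/- liver. Ern1 had means of 682 ± 73.8 and 663 ± 56.3, and its mean over tested probe sets gave a log2 difference of -0.33 in place of -0.04.

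The regulators of the integrated stress response differed more between the single wildtype arrays than between the means of the genotypes. The median size of their log2 difference was 0.91 between the wildtype arrays, 0.31 between the Sox17+/- arrays and 0.29 between genotypes, against 0.25, 0.23 and 0.17 over all tested genes. Means of 2 arrays vary less than single arrays, and the order of the 3 values was the same over all tested genes. Ddit3, the transcription factor CHOP, had signals of 615 and 1165 on wildtype arrays 1 and 2 and 1323 and 812 on Sox17+/- arrays 1 and 2. Trib3, a pseudokinase induced by ATF4 and CHOP that in turn restrains ATF4, followed the same order with 224 and 551 in wildtype and 808 and 374 in Sox17+/- liver. For both genes wildtype array 1 was lowest and Sox17+/- array 1 highest. The difference between genotypes was therefore 1.09 for Ddit3 and 1.78 for Trib3 at array number 1, and -0.51 and -0.54 at number 2. Atf4 itself had a smaller range and was again lowest on wildtype array 1, with 6411 and 8694 in wildtype and 8636 and 7341 in Sox17+/- liver. Ppp1r15a, the phosphatase subunit that ends the response by acting on eIF2, had 7689 and 9140 against 10025 and 8085.

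The widest spreads were those of Sesn2 and Chac1. Sesn2, a leucine sensor and ATF4 target, had 44.8 and 358 in wildtype and 245 and 394 in Sox17+/- liver, with a log2 difference of 1.12 (SE 0.87) and 1 value far below the others. Without wildtype array 1 the difference of Sesn2 was -0.19 and that of Trib3 -0.0018. Chac1, which degrades glutathione, had 190 and 896 in wildtype and 236 and 209 in Sox17+/- liver. Its log2 difference of -0.86 (SE 0.70) rested on wildtype array 2, and without that array it was 0.21. Cebpg, a partner of ATF4 on DNA, was even, with means of 1477 ± 156 and 1572 ± 171 (SD, n = 2 each).

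Among all 33 members, 3 (Sesn2, Chac1 and Trib3) were over 2-fold brighter on wildtype array 2 than on wildtype array 1, against 2.63% of all tested genes. None was over 2-fold dimmer, against 2.29% of all tested genes. Of the members 14 (42.4%) had their lowest signal on wildtype array 1, against 24.8% of all tested genes, and 6 of the 7 regulators were among them. Between the Sox17+/- arrays 1 member, Trib3, was over 2-fold apart, against 3.13% of all tested genes. The actin values of wildtype array 1 given above moved with this pattern, and their part in it was not tested.

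**Figure D2:**
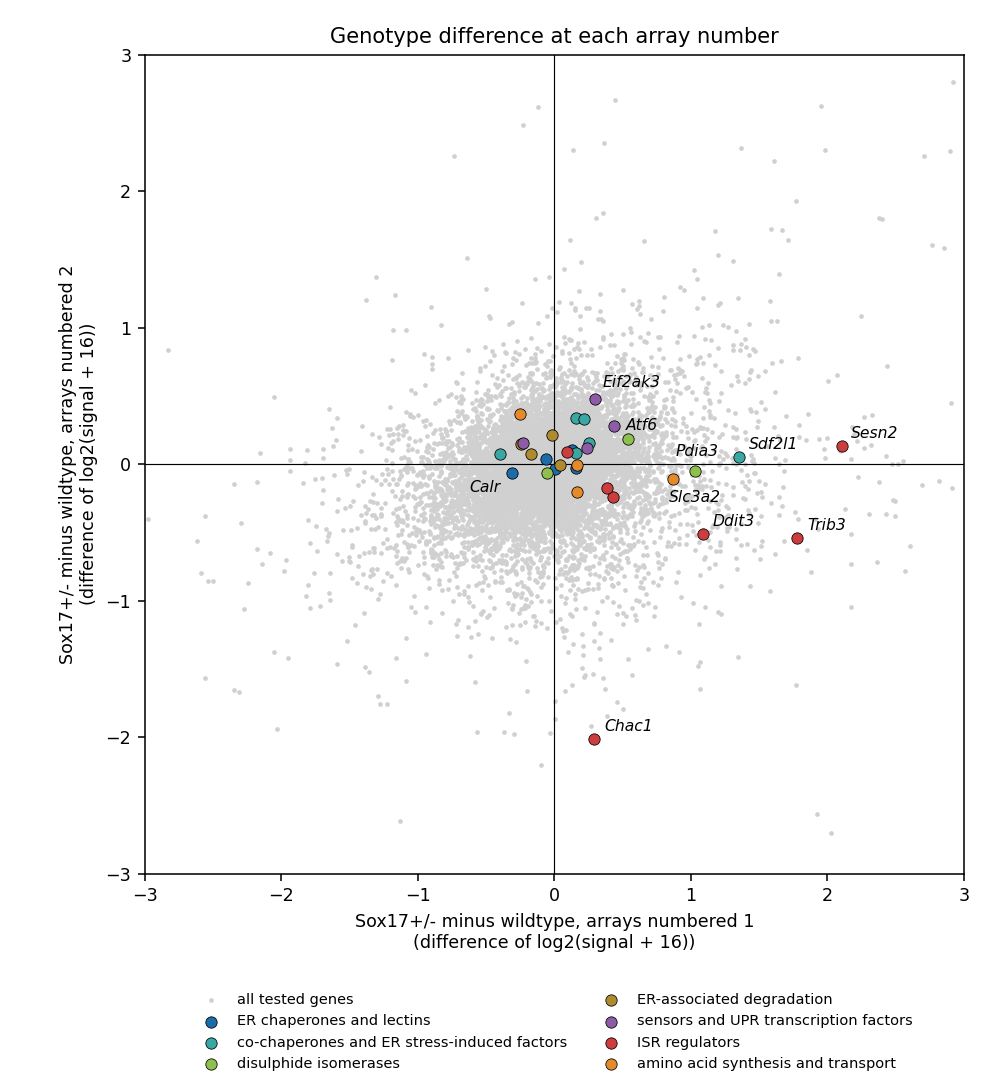
Difference between Sox17+/- and wildtype of log2(signal + 16) on the arrays numbered 1 (horizontal) and numbered 2 (vertical), with all tested genes in grey, 20 of them outside the axes, and members coloured by role. Trib3 and Ddit3 lie at 1.78 and 1.09 on the horizontal axis and at -0.54 and -0.51 on the vertical axis, while Atf6 and Eif2ak3 lie above 0 on both.

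The genes of amino acid synthesis and transport overlapped between genotypes. Slc3a2, the heavy chain of several amino acid exchangers, had signals of 3377 and 5315 in wildtype and 6177 and 4925 in Sox17+/- liver. Its order over the arrays was that of Ddit3 and Trib3. Asns, which makes asparagine, had 10623 and 14874 in wildtype and 11926 and 12905 in Sox17+/- liver (log2 difference -0.02, SE 0.25). The serine synthesis genes Phgdh and Psat1 had means of 6692 ± 1006 and 7039 ± 449, and of 11931 ± 4392 and 11993 ± 884 (SD, n = 2 each). Psat1 differed from the other 3 in being brightest on wildtype array 1, at 15037, and dimmest on wildtype array 2, at 8825. Together with the regulators, 8 of these 11 genes were higher in Sox17+/- liver at array number 1 and lower at number 2, as were 12 of the 33 members (36.4%) and 20.2% of all tested genes. The reverse held for 7 members (21.2%) and 22% of all tested genes.

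Several chaperone genes instead followed the array number in both genotypes. Of the 33 members 14 (42.4%) were brighter on array 1 than on array 2 of each genotype, against 31.5% of all tested genes, and 7 (21.2%) were dimmer on array 1 of each, against 31.3%. Hspa5, Hsp90b1, Dnajb9, Creld2, Manf, Pdia6, Herpud1 and Xbp1 were among the 14. Hyou1 went the other way, with 1114 (wildtype) and 1116 (Sox17+/-) for number 1, below 1644 and 1603 for number 2. The 8 hepatocyte markers of the list of 10 that were measured had summed signals of 314182 and 188968 on wildtype arrays 1 and 2 and 310571 and 180133 on Sox17+/- arrays 1 and 2. Apoa1, the brightest of these markers, read 56988 and 56859.5 for number 1 and 34104 and 32468 for number 2. Summed marker signals of erythroid, endothelial, macrophage, B and plasma, cholangiocyte, acinar and stellate cells were also lower on array 2 of each genotype. Those of the erythroid markers were 86886 and 75578 in wildtype and 89719.5 and 74369 in Sox17+/- liver. Such sums follow the brightest markers and do not hold for each one. Of the tested markers 2 of 6 endothelial, 4 of 5 erythroid and 4 of 6 stellate ones were brighter on array 1 of each genotype. Epb42 (erythroid) and Col1a1 (stellate) were dimmer on array 1 of each. The highest signal of any probe set was 56988 (wildtype) and 56859.5 (Sox17+/-) for number 1, and 34407 and 32468 for number 2. The members named among the 14 lay between the 89.4 and 99.3 percentiles of brightness, whereas the share of all tested genes includes dimmer ones. With quantile normalization the SE of Hspa5 was 0.18 in place of 0.29, and that of Hsp90b1 0.17 in place of 0.26. The part of the signal range, the hepatocyte markers or other markers in the chaperone pattern was not tested. The same-numbered arrays share a code in their names, and its meaning is not given in the sources used here.

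**Figure D3:**
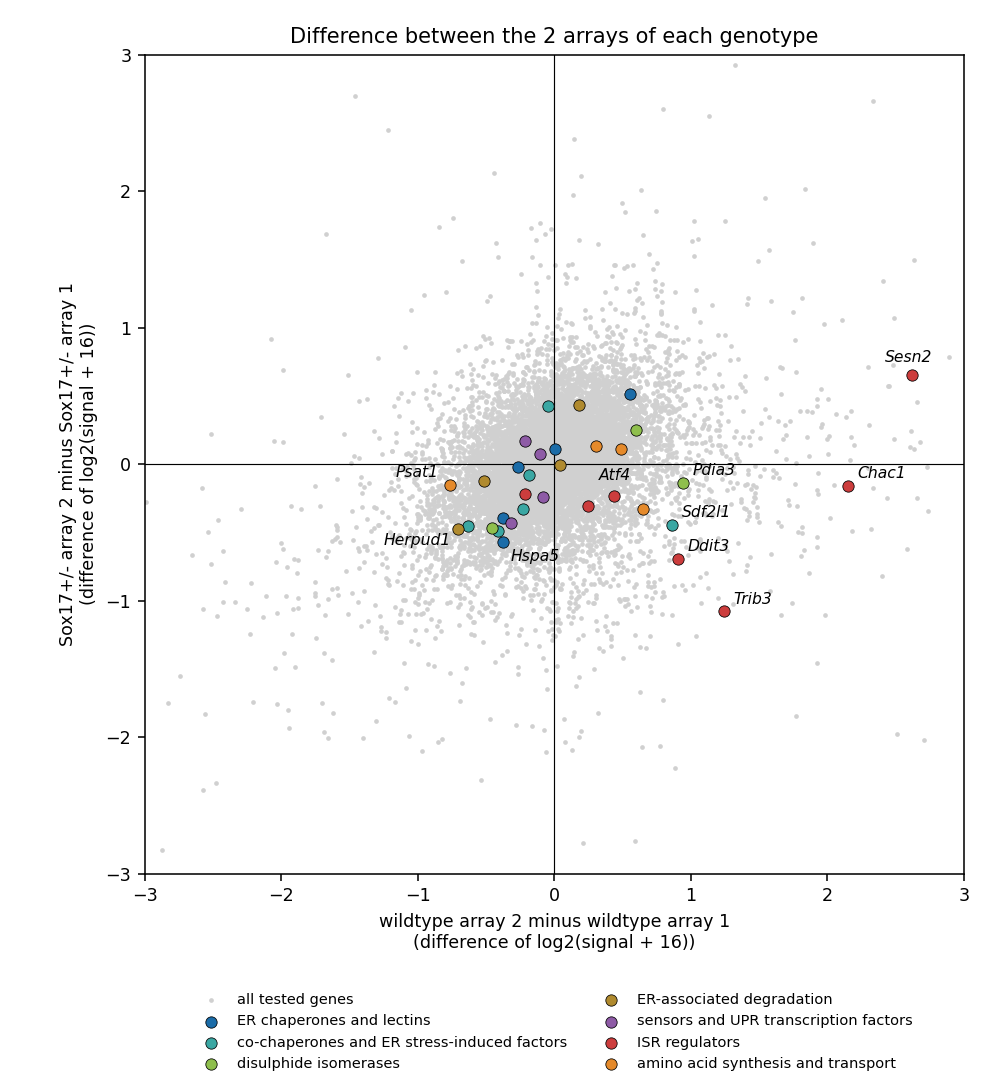
Difference of log2(signal + 16) between array 2 and array 1 of wildtype (horizontal) and of Sox17+/- liver (vertical), with all tested genes in grey, 13 of them outside the axes, and members coloured by role. Sesn2 and Chac1 lie at 2.62 and 2.15 on the horizontal axis, and Hspa5 lies below 0 on both axes, at -0.38 and -0.57.

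The 8 members with the ER stress response element printed above had log2 differences between -0.19 and 0.12 (median -0.03), and 0 of them were lowest on wildtype array 1. The 22 members with a promoter and no such element had differences between -0.86 and 1.12 (median 0.14), and 13 of them were lowest on wildtype array 1. The element goes with role among these genes, so the split is a description of the same values. Of the 4 genes with the TGATGNAA core, Chac1 and Trib3 had wide spreads between the wildtype arrays, of 2.15 and 1.24, while Asns had 0.48 and Herpud1 -0.71.

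Several members were measured by more than 1 probe set, so that each difference can be read again within the gene. The 33 members had 79 probe sets, 69 of them bright enough to be tested, and 21 members had more than 1 tested. Without overlap 9 of the 69 were higher and 6 lower in Sox17+/- liver. Of all tested genes, at their brightest probe sets, 14.5% were higher and 18.7% lower. The probe sets had the same direction for 9 of the 21 members (42.9%), against 52.9% of the 5167 genes with several tested probe sets. Xbp1, with 4 probe sets between 0.06 and 0.24, and Calr, with 3 between -0.20 and -0.13, were among the 9. Trib3 (0.62 and 0.44) and Sesn2 (1.12 and 1.01) were also among them, and their second probe sets repeated the low value of wildtype array 1, with 197 on that array against 298 to 597 on the others for Trib3 and 7.03 against 105 to 260 for Sesn2. The next brightest Atf6 probe set had 365 and 406 in wildtype and 628 and 546 in Sox17+/- liver, again with no overlap (log2 difference 0.59). The dimmest Atf6 probe set had 164 and 75.0 in wildtype and 93.0 and 88.1 in Sox17+/- liver, in the opposite direction (-0.26). The dimmer tested probe set of Ern1 had 170 and 211 in wildtype and 114 and 121 in Sox17+/- liver, lower without overlap (-0.62), where its brightest overlapped. The second probe set of Syvn1 had 595 and 642 against 758 and 758, higher without overlap (0.29), where its brightest overlapped at -0.05. Of the 5 probe sets of Sel1l 1 was higher without overlap, at 925 and 983 against 1057 and 1108, and the other 4 overlapped. The next brightest probe set of Hspa5 was higher without overlap, at 14315 and 12880 against 16219 and 14516. Its dimmest was lower without overlap, at 1129 and 1202 against 781 and 1076. The dimmest probe set of Dnajc3 was higher without overlap, at 317 and 353 against 367 and 463. That of Cebpg was lower, at 108.4 and 133 against 76.1 and 108.1. The dimmer tested probe set of Pdia3 had 200 and 168 in wildtype and 155 and 157 in Sox17+/- liver, without the low value on wildtype array 1. It was lower without overlap (-0.21), opposite to the brightest. Eif2ak3 had 1 tested probe set. Its other 2 were dim, with signals between 3.31 and 58.4.

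**Figure D4:**
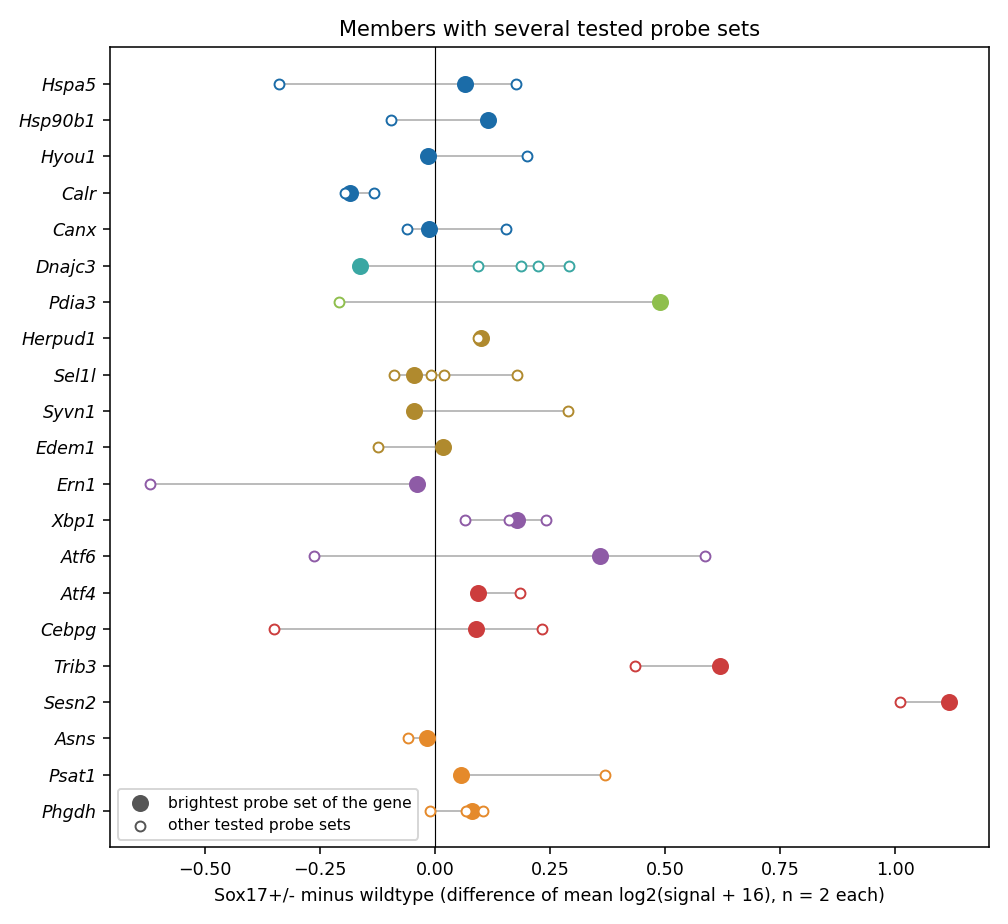
Log2 difference between Sox17+/- and wildtype for every tested probe set of the 21 members that had several, with the brightest as a large filled circle and the others as open circles. The circles of Xbp1, Herpud1, Trib3 and Sesn2 stay to the right of 0, and those of Atf6 lie on both sides, from -0.26 to 0.59.

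Further genes of the same pathways, 115 in 8 lists, were read in the same way, and 104 of them were bright enough to be tested. None passed limma's test over all probe sets (0 of 104 at an adjusted p under 0.05). At an unadjusted p under 0.05 8 of the 104 were higher and 0 lower, against 1.6% and 2.55% of all tested genes. Signals were higher on both Sox17+/- arrays for 29 of the 104 (27.9%) and lower on both for 12 (11.5%), against 14.5% and 18.7% of all tested genes. Among the 104, 4 genes passed the brightness filter (a mean signal of at least 89.7) only through their Sox17+/- arrays. These were Atf3, Stc2, Slc7a3 and Derl3, and the filter favoured their count as higher. Atf3, Stc2 and Slc7a3 are also among the 8 with an unadjusted limma p under 0.05. The lists were chosen with earlier results of these data known. With no filter on brightness the counts without overlap were 29 higher and 14 lower of 108, against 13.9% and 19% of all genes. Each of the 33 members met the filter in both genotypes. Of 17 translocon and ER entry genes 3 were higher and 2 lower without overlap, with a median log2 difference of -0.01. Sec62 and Sec63, subunits of the post-translational translocon, were 2 of the 3, with Sec62 at 4338 and 3885 in wildtype and 6317 and 4718 in Sox17+/- liver. Of 18 further sensors and eIF2 kinases 3 were higher and 3 lower, with a median of -0.01. Crebrf, a factor that promotes loss of CREB3, had 325 and 248 against 437 and 366, and Wfs1, the ER membrane protein mutated in Wolfram syndrome, had 259 and 193 against 159 and 169. Eif2ak1, the haem-regulated eIF2 kinase of erythroid cells, had 6164 and 6288 against 6687 and 6903, a log2 difference of 0.13 (SE 0.19).

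With no filter on brightness, 8 of 18 further ATF4 targets (44.4%) were higher on both Sox17+/- arrays and 4 (22.2%) were lower. The shares of all genes were 13.9% and 19%, so the lower share is near the background. The median log2 difference of the 18 was 0.27. Among the 12 that met the filter in both genotypes, a restriction chosen after seeing the data, 5 were higher and 2 lower (Gpt2 and Cth). Their median was 0.25. Of all tested genes that met it in both, 14.3% were higher and 18% lower. Atf3, a stress-induced transcription factor, had signals of 81.1 and 36.7 in wildtype and 707 and 243 in Sox17+/- liver. Vldlr, a lipoprotein receptor, had 495 and 214 against 1547 and 1058. Stc2, a secreted glycoprotein induced by ER stress, had 64.9 and 85.0 against 153 and 158. Slc7a3, a transporter of cationic amino acids, had 24.9 and 57.0 against 112 and 176. These 4 were named for the smallest p of their list, which favours the same direction at both array numbers, and none passed (unadjusted p by limma 0.0061 to 0.0094, adjusted p 0.9999). Other genes of the list had the signs of Trib3, higher at array number 1 and lower at number 2, with Slc7a5, an amino acid exchanger paired with Slc3a2, at 0.36 and -0.56. Of the 5 genes of the list with an unadjusted p under 0.05 (all higher, against 1.6% of all tested genes), 3 had passed the filter only through Sox17+/-, the others being Vldlr and Ddit4, an inhibitor of mTORC1, with 724 and 604 against 1881 and 1091. The heat shock genes Hspa1a and Hspa1b, which lie outside these lists, were higher in the same libraries, at 44.4 and 65.1 against 1283 and 923, and at 109 and 99.8 against 3151 and 1750. Their adjusted p by limma was 0.387, and their part in the ATF4 list was not tested.

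The counts of the remaining lists stand beside 14.5% of all tested genes higher and 18.7% lower without overlap. Of 12 aminoacyl-tRNA synthetases 5 (41.7%) were higher without overlap and 0 lower, with a median of 0.17 and single values up to 0.29 (Eprs). Of the 12, 8 (66.7%) had their lowest signal on wildtype array 1, the 5 among them, against 24.8% of all tested genes. Nars had 7447 and 7795 in wildtype and 9251 and 8779 in Sox17+/- liver. Of 16 further genes of ER-associated degradation and traffic 5 (31.25%) were higher, Derl3 among them, and 1 (6.25%) lower. Erlec1, a lectin of that pathway, was at 1429 and 1451 against 1982 and 1701. Derl3, a component of the degradation channel, was dim, at 111 and 26.1 against 147 and 135. Ero1a, the oxidase that recharges disulphide isomerases, had 3963 and 3028 in wildtype and 6520 and 4986 in Sox17+/- liver (log2 difference 0.72, SE 0.26). Ero1a was the single gene of 16 further folding and oxidation genes with an unadjusted limma p under 0.05. The list had a median of -0.07, with 2 (12.5%) higher and 3 (18.75%) lower without overlap, near the shares of all tested genes. Pdia5, another disulphide isomerase, was among the lower, with 3286 and 3207 against 2569 and 2860. Of the 6 serine, proline and one-carbon genes tested, Mthfd2 had 1515 and 2817 against 3238 and 2702, the order of Ddit3 with wildtype array 1 lowest. Of the 4 tested mRNAs known to be cut by IRE1 2 (50%) were higher without overlap and 2 overlapped, Pdgfrb (0.13) and Hgsnat (-0.03), with a median of 0.31. The higher ones were Col6a1, a collagen chain, at 352 and 323 against 507 and 577, and Sparc, a matrix glycoprotein, at 3752 and 3730 against 6252 and 4377.

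**Figure D5:**
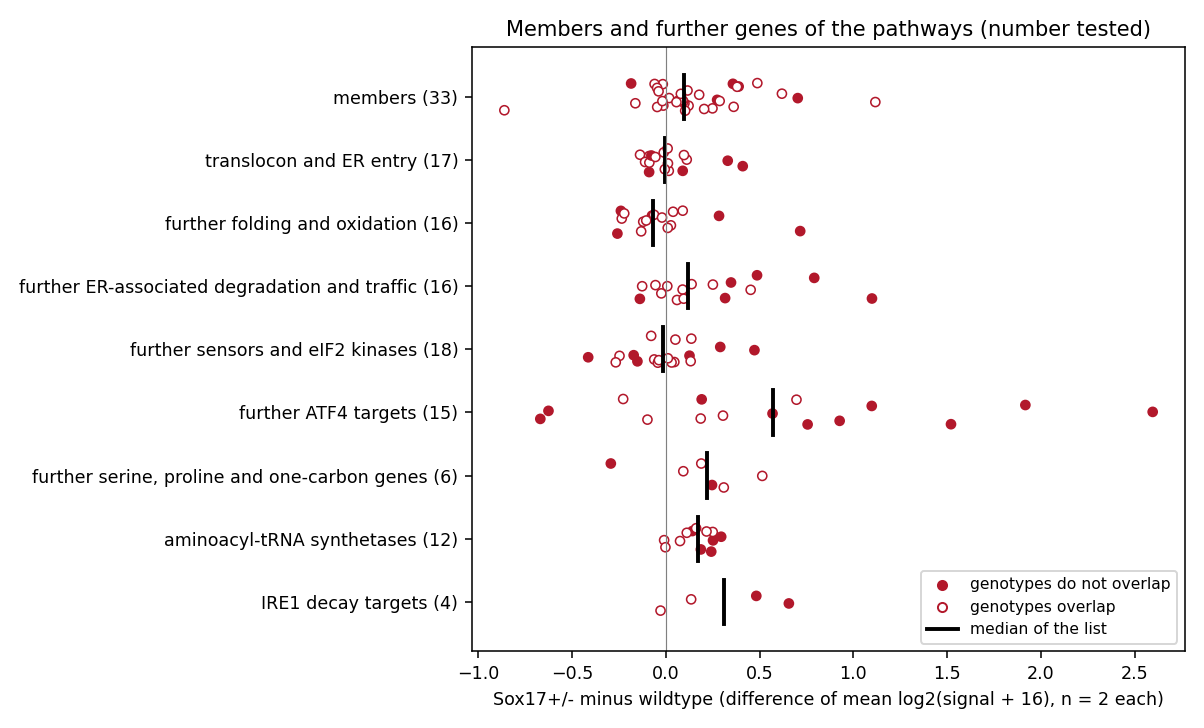
Log2 difference between Sox17+/- and wildtype for the members and for each further list, with filled points for genes whose genotypes do not overlap, open points for the others and a black bar at the median. The bar of the further ATF4 targets lies at 0.57 over 15 tested genes, 3 of which passed the brightness filter only through Sox17+/-, that of the members at 0.10 and that of the translocon genes at -0.01.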

How the data were processed

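The deposited values were probe set intensity values (signals) on a linear scale, 1 array per sample, and the submitters' processing notes name MAS5. Version, settings and detection calls were not given in the sources used here. Scaling to a common trimmed mean, seen in the values, removes any difference in total RNA, and dim signals carry much noise. Of 45101 probe sets, 64 controls were left out, and 34945 of the rest had 1 symbol, 932 several and 9160 none listed. The brighter 50% by mean signal (22519) were taken as log2(signal + 16) and entered limma 3.58.1 under R 4.3.3 (lmFit, eBayes, two-sided, genotype as the only term, 2 residual and 3.06 prior degrees of freedom), with Benjamini-Hochberg adjustment over all of them and a threshold of 0.05. The p-values rest on the spread between 2 arrays per genotype together with a prior variance fitted over all tested probe sets. With 3.06 prior against 2 residual degrees of freedom, the prior weighs more than a probe set's own arrays. The number of arrays limits the precision. The code was tested on simulated data. Differences at an array number compare the arrays that carry that replicate number. No protein sequences were used here. The genes named were all members, up to 4 genes with the smallest p of each further list, Sox17, Atf3, Hspa1a and Hspa1b; Ddit4, Eif2ak1, Gpt2, Cth, Slc7a5 and the marker and control genes were named after their values were seen. The members and lists were chosen with earlier results of these data known. Alternatives were pseudocounts of 1 and 64, no filter, the brighter 25%, median centring, quantile normalization, each array left out, the array number as a block, another prior, and the mean over probe sets.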

Additional observations from a re-analysis of the deposited data

How the results depend on the processing

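No member passed limma's test under any of 13 alternative settings, where the smallest adjusted p of a member was 0.192 (Sesn2 without wildtype replicate 2). The count of all probe sets that passed was 0 and became 3 with median centring and 3 with a trended and robust prior. Same-numbered arrays deviated together (r = 0.383 across probe sets), but the labels do not say that the number marks a pairing. With the replicate number as a block 0 probe sets and 0 members passed, and 1673 probe sets against 916 had an unadjusted p under 0.05. Members higher without overlap numbered 8 and lower 0 with median centring (4 and 1 in the main analysis), and 2 were lower with the mean over probe sets. Leaving out each array gave 9 to 17 higher and 3 to 6 lower. The median over members was 0.038 to 0.26 without each array, with 0.26 without Sox17+/- replicate 2. In the brighter 25% of probe sets, which leaves out Sesn2 and Chac1, 1 member was over 2-fold brighter on wildtype array 2. In that setting 5 further ATF4 targets were higher without overlap, against 16.1% of its genes (8 of 15 in the main analysis, against 14.5%). With the brightness filter met in each genotype, a setting added after seeing the data, 5 of 12 were higher, against 14.3%. Without each array the count was 9 to 11. Only 3 arrays had to separate there, and 29.1% to 31.4% of all tested genes were higher. Of the 33 members 9 kept their direction without each array and 24 did not. The 9 include Atf6, Eif2ak3, Dnajb11, Sdf2l1 and Calr, whose genotypes did not overlap, so that their direction could not change. Without each array the log2 differences of the 24 spanned Hspa5 -0.22 to 0.35, Hsp90b1 -0.082 to 0.31, Canx -0.068 to 0.040, Pdia6 -0.30 to 0.18, Dnajb9 -0.069 to 0.57, Dnajc3 -0.38 to 0.051, Creld2 -0.12 to 0.37, Hyou1 -0.29 to 0.26, Herpud1 -0.25 to 0.45, Sel1l -0.30 to 0.21, Syvn1 -0.26 to 0.17, Edem1 -0.0015 to 0.036, Xbp1 -0.040 to 0.39, Ern1 -0.15 to 0.069, Atf4 -0.13 to 0.31, Ddit3 -0.17 to 0.74, Trib3 -0.0018 to 1.24, Chac1 -1.94 to 0.21, Asns -0.26 to 0.22, Ppp1r15a -0.052 to 0.26, Sesn2 -0.19 to 2.43, Cebpg -0.021 to 0.20, Psat1 -0.33 to 0.44, Phgdh -0.074 to 0.23. Under the other 9 settings 23 members kept their direction. With median centring those of Canx, Hyou1, Syvn1, Ern1 and Asns turned to 0.033, 0.030, 0.00014, 0.0075 and 0.028. With the mean over probe sets those of Hspa5, Canx, Dnajc3, Hyou1, Sel1l, Syvn1, Edem1 and Cebpg turned to -0.033, 0.026, 0.13, 0.092, 0.010, 0.12, -0.054 and -0.0096. The cause of these changes was not tested.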
